A study of Arabidopsis thaliana with 2 samples.

Results

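Receptor-like proteins (RLPs) are cell-surface receptors of plants, and the 57 genes described here are the numbered Arabidopsis thaliana family RLP1 to RLP57, in which RLP10 is CLV2 and RLP17 is TMM. Members were chosen by locus identifier among the 33602 loci of the count tables, where 57 of 57 were listed, and kept as measured by their deposited counts, at least 10 in a library. The counts come from RNA sequencing of total RNA from explants of the first pair of rosette leaves of seedlings at 12 days after sowing. Explants of both groups were of the genotype pER8:3xFlag-NAC1/Col-0, a transgene through which estradiol switches on a tagged copy of NAC1, a NAC-domain transcription factor. Estradiol explants were cultured on B5 medium with β-estradiol in DMSO, and control explants on B5 medium with DMSO only. Each group has 1 library, so there is no replicate, no test was possible, and every difference is one between 2 libraries that carry the same transgene. How long the treatment lasted, how many plants were pooled and how many transgenic lines were used is information not given in the sources used here.

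An RLP has an outer domain of leucine-rich repeats, a membrane span and a short tail without a kinase, so it works with receptor kinases. Immune members recognise molecules of microbes, pair with the kinase SOBIR1 and recruit co-receptors of the SERK family such as BAK1. Other members act in development, where CLV2 takes part in meristem size control and TMM in the spacing of stomata. The design text gives the purpose of the comparison as finding genes that NAC1 turns up.

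The libraries held 48350705 gene counts with estradiol and 39799127 in the control. NAC1 had 28380 counts in the estradiol library and 466 in the control, a ratio of 49.4 with a 95% counting interval of 45.1 to 54.3, and this count does not separate the transgene from the gene's own copy. Leaf mesophyll markers were abundant in both libraries, with RBCS1A at 102063 and 109863 counts, and CAB3 and LHCB2.1 were the 2 of 5 called lower (these 3 genes have similar copies). Of 5 root markers, EXPA7 and RHD6 were at 0 in both libraries and COBL9 had 1 count in each, while PYK10 had 3915 with estradiol and 1948 in the control and WOX5 had 4 and 13, and none was called. The shoot meristem markers CLV3 and WUS were at 0 in both and STM had 1 and 0 counts. Summed levels of 5 guard cell markers were 125 CPM, counts scaled to library size, with estradiol and 162 in the control, of 7 stomatal lineage markers 21.0 and 25.8, of 4 phloem markers 216 and 250, and of 4 xylem markers 44.0 and 42.0. FAMA alone held 20.1 and 24.6 CPM of the stomatal lineage sums. SPCH, MUTE, EPF2, POLAR and BASL of that list had under 10 counts in both libraries. The xylem protease gene XCP1 was the only called gene of the guard cell, stomatal lineage, phloem and xylem lists, and it was higher. The part of these markers in the RLP values was not tested. In such bulk samples, fewer cells of a type and less RNA per cell cannot be told apart.

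About as many measured RLP genes were clearly higher with estradiol as were not, and 1 was clearly lower. A gene counts as measured with at least 10 counts in a library, and as higher or lower where the whole 95% interval of its ratio lies above 2 or below 0.5. By that rule 24 of 51 measured members (47.1%) were higher, 1 (1.96%) was lower and 26 were neither. Over all 20274 measured genes, 5.38% were higher and 4.64% lower. The median log2 ratio was 1.08 over the measured members and 0.01 over all measured genes, and 41 members lay above 0 and 10 below. The family was selected on its ratios in these same libraries, so these counts describe it and support nothing further. Of the 51, 4 reached 10 counts only through the estradiol library, namely RLP11, RLP20, RLP28 and RLP39. Without them 20 of 47 were higher, and no share over all genes with at least 10 counts in both libraries is given. The whole interval lay above 4 for 14 of the 51 (27.5%), against 2.31% of all measured genes. If libraries of a group are assumed to vary with a coefficient of variation of 0.2, 19 members (37.3%) were still higher, against 3.16% of all measured genes.

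Summed over the 57 members, the family took 1462 CPM in the estradiol library and 519 CPM in the control, a ratio of 2.82. RLP34, RLP23 and RLP40 held 31.5% of the family's estradiol counts and 8.37% of its control counts. Levels per length, scaled to exon length and library size as RPKM, had a median of 3.66 over the measured members with estradiol and 1.72 in the control. The same medians over all measured genes were 10.9 and 10.7 RPKM, so most RLP genes lay in the lower part of the range in both libraries. In the control, 21 of the 51 members were under 1 RPKM and 6 were over 10, and with estradiol 9 were under 1 and 12 over 10. RLP4 had the highest control level at 27.6 RPKM and RLP34 the highest estradiol level at 64.1 RPKM. In the order of levels, RLP53 stood at place 12 with estradiol and 44 in the control, RLP24 at place 19 with estradiol and 47 in the control, and RLP45 at place 35 with estradiol and 12 in the control. RLP23 stood at place 2 with estradiol and 23 in the control, while RLP11, the lowest in the control at place 51, stood at place 50 with estradiol.

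**Figure D1:**
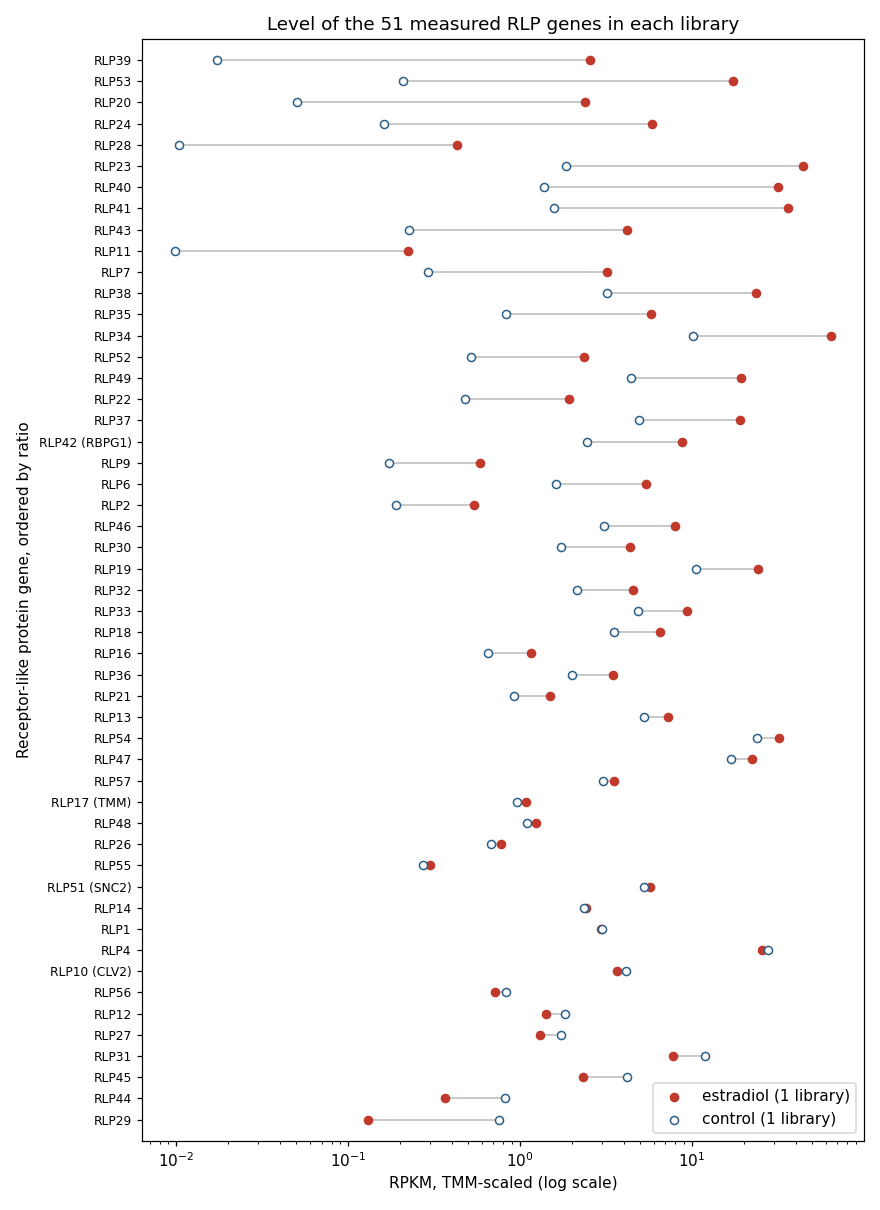
Level of each of the 51 measured RLP genes in RPKM on a log scale, with the estradiol library as filled points and the control library as open points, ordered by ratio. The largest gaps are at RLP39, RLP53, RLP20, RLP28 and RLP24, whose control levels are 0.0173, 0.209, 0.0502, 0.0104 and 0.161 RPKM, and the order of the 2 points turns round near the bottom.

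At the low end, 6 members were not measured. RLP3, known as RFO2 and linked to resistance to Fusarium wilt, RLP5, RLP25 and RLP50 were at 0 in both libraries. A count of 0 allows up to 3 counts, or 0.0616 CPM with estradiol and 0.0759 CPM in the control, and covers counting error only. RLP8 had 4 counts with estradiol and 3 in the control, the nearest to the minimum of 10 on the outside, and RLP15 had 1 in each library. The members nearest to it on the inside were RLP55, with 23 counts with estradiol and 17 in the control, and RLP11, with 28 and 1.

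Among the 8 measured members with a known role in immunity, 4 were higher, 0 were lower and 4 were neither, with a median log2 ratio of 1.21. RLP23 (AT2G32680), the receptor of the nlp20 peptide found in secreted proteins of bacteria, fungi and oomycetes, had 6166 counts with estradiol and 207 in the control. Its ratio was 24.2 (95% counting interval 21.0 to 27.9), and its level was 44.5 RPKM with estradiol and 1.84 in the control. RLP23 was thus the immune member with the highest estradiol level, while in the control RLP51 was, at 5.23 RPKM. RLP52 (AT5G25910), a chitin-induced gene linked to powdery mildew resistance, had 280 counts with estradiol and 50 in the control, a ratio of 4.54 (3.35 to 6.27). RLP42 (AT3G25020), known as RBPG1, the receptor of fungal polygalacturonases, had 1326 and 303 counts, a ratio of 3.55 (3.13 to 4.04). RLP30 (AT3G05360), needed for the response to a small cysteine-rich protein of the fungus Sclerotinia, had 573 and 185 counts, a ratio of 2.51 (2.13 to 2.98). These 3 lay well under RLP23, and RLP30 was the higher member closest to the limit.

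The other immune members stayed on the near side of the limit. RLP32 (AT3G05650), the receptor of bacterial translation initiation factor 1, had 850 counts with estradiol and 325 in the control, a ratio of 2.12 whose interval of 1.87 to 2.42 includes 2. RLP18 (AT2G15040), linked to resistance to a non-adapted Pseudomonas syringae and annotated as a transcribed pseudogene in Col-0, had 612 and 266 counts, a ratio of 1.87 (1.61 to 2.16). Both intervals lie above 1 and reach past 2. RLP51 (AT4G18760), known as SNC2, whose gain-of-function allele switches on immunity, had 492 and 368 counts, a ratio of 1.08 (0.946 to 1.25). RLP1 (AT1G07390), also written ReMAX, which perceives a pattern from Xanthomonas, had 577 and 476 counts, a ratio of 0.984 (0.870 to 1.11). For these last 2 genes the interval includes 1, so a difference between the libraries was not detectable at this depth.

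None of the 4 members with a known role in development or the wall was called, and their median log2 ratio was -0.15. CLV2 (RLP10, AT1G65380), which works with the pseudokinase CRN in CLE peptide signalling, had 461 counts with estradiol and 425 in the control, a ratio of 0.880 (0.770 to 1.01). TMM (RLP17, AT1G80080), which works with ERECTA-family kinases in stomatal patterning, had 97 and 69 counts, a ratio of 1.14 (0.829 to 1.58). RLP4 (AT1G28340), with malectin-like and leucine-rich repeat domains and found at cell edges in lateral roots, had 3071 and 2684 counts, a ratio of 0.929 (0.881 to 0.978). RLP4 was thus high in both libraries and close to equal after scaling. RLP44 (AT3G49750), which links the state of wall pectin to brassinosteroid and phytosulfokine receptors, had 22 and 40 counts. Its ratio of 0.446 has an interval from 0.253 to 0.769, which lies below 1 and includes 0.5.

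The other members, those placed in neither role group, make up most of the family. Of these 39 measured members 20 (51.3%) were higher, 1 was lower and 18 were neither, with a median log2 ratio of 1.37. RLP53 (AT5G27060) had 2753 counts with estradiol and 27 in the control, a ratio of 82.7 (56.7 to 126). Its level was 17.3 RPKM with estradiol and 0.209 RPKM in the control. RLP24 (AT2G33020) had 761 and 17 counts with a ratio of 36.3 (22.5 to 62.7), and RLP20 (AT2G25440) had 235 and 4 with a ratio of 47.7 (18.4 to 176). RLP39 (AT3G24900) had 364 and 2 counts with a ratio of 148 (40.6 to 1224), RLP28 (AT2G33080) had 51 and 1 with a ratio of 41.4 (7.10 to 1666), and RLP11 (AT1G71390) had 28 and 1 with a ratio of 22.7 (3.76 to 929). The wide intervals of these 3 come from 1 or 2 control counts, so the size of their ratios is poorly fixed.

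Others combined a large ratio with many counts. RLP40 (AT3G24982) had 6082 counts with estradiol and 213 in the control, a ratio of 23.2 (20.2 to 26.7). RLP41 (AT3G25010), whose mutant was reported to be more sensitive to abscisic acid, had 5099 and 179 counts, a ratio of 23.1 (19.9 to 27.0). RLP34 (AT3G11010), the most abundant member with estradiol, had 10152 and 1297 counts, a ratio of 6.35 (5.99 to 6.73). These genes reached 31.7, 36.4 and 64.1 RPKM with estradiol, and stood at 1.37, 1.57 and 10.09 RPKM in the control. RLP43 (AT3G28890) had 525 and 23 counts with a ratio of 18.5 (12.2 to 29.5), and RLP7 (AT1G47890) had 491 and 36 with a ratio of 11.1 (7.88 to 16.0). RLP38 (AT3G23120) had 2742 and 303 counts with a ratio of 7.34 (6.52 to 8.30), and RLP35 (AT3G11080) had 925 and 108 with a ratio of 6.95 (5.69 to 8.56).

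The remaining higher members had ratios between 2.31 and 4.37. RLP49 (AT4G13900), annotated as a transcribed pseudogene, had 3226 counts with estradiol and 599 in the control, a ratio of 4.37 (4.0 to 4.78). RLP22 (AT2G32660) had 243 and 49 counts, and RLP37 (AT3G23110) had 2322 and 490, with ratios of 4.02 (2.95 to 5.59) and 3.85 (3.49 to 4.25). RLP9 (AT1G58190) had 180 and 43 counts, and RLP6 (AT1G45616) had 861 and 209, with ratios of 3.40 (2.42 to 4.86) and 3.34 (2.87 to 3.91). The members nearest to the limit, besides RLP30, were RLP46 and RLP19. RLP46 (AT4G04220) had 1046 and 327 counts and a ratio of 2.60 (2.29 to 2.95), and RLP19 (AT2G15080) had 4414 and 1552 and a ratio of 2.31 (2.18 to 2.45). RLP6, RLP9, RLP19, RLP30 and RLP46 were no longer called with the assumed variation between libraries.

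On the other side of the limit, RLP2 had 67 counts with estradiol and 19 in the control, with a ratio of 2.86 (1.70 to 5.04), and RLP33 had 1443 and 610, with a ratio of 1.92 (1.75 to 2.11). RLP2, with RLP12, can stand in for CLV2 when expressed in its place, and RLP12 had 192 and 202 counts, a ratio of 0.771 (0.630 to 0.944). The single lower member was RLP29 (AT2G42800), with 15 counts with estradiol and 70 in the control, a ratio of 0.174 (0.0924 to 0.307). RLP29 was also the measured member with the lowest estradiol level, 0.131 RPKM. RLP45 had 358 and 525 counts with a ratio of 0.553 (0.482 to 0.634), and RLP31 had 1104 and 1368 with a ratio of 0.655 (0.604 to 0.709). Of the 26 members that were neither, 10 had an interval wholly above 1, 6 wholly below 1 and the others spanned it. RLP54 and RLP47, among the most abundant members in both libraries, had 4304 and 3327 counts with estradiol and 2623 and 2031 in the control, with ratios of 1.33 each. RLP36, RLP57 and RLP56 had 433, 273 and 129 counts with estradiol and 203, 189 and 121 in the control, with log2 ratios of 0.79, 0.23 and -0.21.

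**Figure D2:**
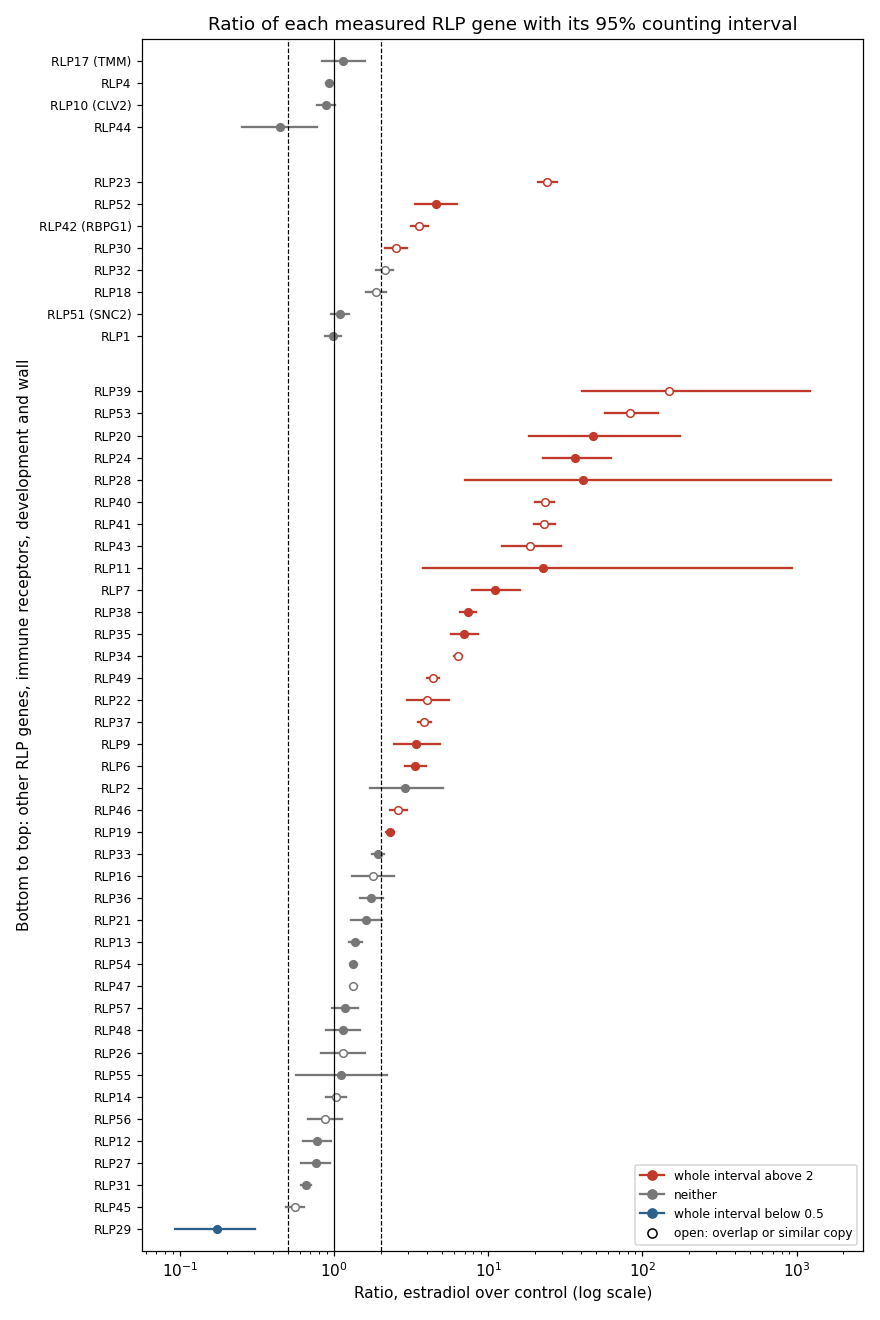
Ratio of estradiol over control for each measured RLP gene on a log scale, with its 95% counting interval, in 3 blocks by known role; dashed lines mark the limits of 2 and 0.5, and open points mark genes that overlap another gene or have a similar copy. The 4 development and wall genes lie at or left of 1.14, RLP23 stands alone among the immune members at 24.2, and the long intervals belong to genes with 1 to 4 control counts.

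The 250 bases before the gene start are shown for 4 higher members, and for CLV2, TMM and RLP29, chosen by name as members that were not higher. The 4 have the largest lower interval bounds among higher members whose window touches no other annotated gene. Sequences and gene starts are RefSeq's for TAIR10.1, read on the strand of each gene, and capitals mark W boxes, the elements that WRKY transcription factors recognise. RLP53 lies on the minus strand with its window at chr5:9525479-9525728, RLP24 on the minus strand at chr2:14016517-14016766 and RLP23 on the minus strand at chr2:13862615-13862864. RLP20 lies on the plus strand at chr2:10826485-10826734, CLV2 on the plus strand at chr1:24286492-24286741, TMM on the minus strand at chr1:30129650-30129899 and RLP29 on the minus strand at chr2:17810266-17810515.
RLP53: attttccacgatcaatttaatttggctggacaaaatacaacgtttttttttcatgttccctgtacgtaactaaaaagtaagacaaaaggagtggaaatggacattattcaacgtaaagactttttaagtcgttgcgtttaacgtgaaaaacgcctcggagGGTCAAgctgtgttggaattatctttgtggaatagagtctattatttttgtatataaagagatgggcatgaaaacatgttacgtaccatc
RLP24: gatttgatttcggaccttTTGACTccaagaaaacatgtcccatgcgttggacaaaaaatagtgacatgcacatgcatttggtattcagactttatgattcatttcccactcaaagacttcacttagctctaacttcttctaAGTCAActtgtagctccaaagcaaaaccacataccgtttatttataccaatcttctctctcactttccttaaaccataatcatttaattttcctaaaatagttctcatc
RLP23: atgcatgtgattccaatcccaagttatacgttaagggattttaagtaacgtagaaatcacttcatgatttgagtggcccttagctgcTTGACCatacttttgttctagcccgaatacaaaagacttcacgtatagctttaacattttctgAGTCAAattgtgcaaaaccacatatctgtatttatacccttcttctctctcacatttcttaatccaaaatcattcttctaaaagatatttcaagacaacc
RLP20: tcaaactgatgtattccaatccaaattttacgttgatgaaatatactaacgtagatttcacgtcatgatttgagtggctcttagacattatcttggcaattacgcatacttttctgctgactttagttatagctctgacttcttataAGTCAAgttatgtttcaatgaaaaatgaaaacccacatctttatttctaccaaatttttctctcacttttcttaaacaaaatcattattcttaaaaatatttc
CLV2: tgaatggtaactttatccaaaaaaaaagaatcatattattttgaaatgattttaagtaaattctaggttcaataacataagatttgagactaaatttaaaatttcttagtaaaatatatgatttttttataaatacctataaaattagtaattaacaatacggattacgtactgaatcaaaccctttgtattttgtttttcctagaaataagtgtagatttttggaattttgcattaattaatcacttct
TMM: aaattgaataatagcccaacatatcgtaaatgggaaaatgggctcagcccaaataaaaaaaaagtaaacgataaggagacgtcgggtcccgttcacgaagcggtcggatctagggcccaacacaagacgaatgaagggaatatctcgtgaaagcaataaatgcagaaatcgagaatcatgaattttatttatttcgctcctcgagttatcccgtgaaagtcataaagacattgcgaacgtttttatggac
RLP29: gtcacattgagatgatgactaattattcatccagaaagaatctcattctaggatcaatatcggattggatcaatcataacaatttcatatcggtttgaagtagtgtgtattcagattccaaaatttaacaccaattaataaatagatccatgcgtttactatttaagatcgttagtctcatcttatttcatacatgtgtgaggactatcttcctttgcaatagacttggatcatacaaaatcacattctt
A W box was searched as TTGACC or TTGACT on both strands. The windows of RLP24 and RLP23 held 2 each, those of RLP53 and RLP20 held 1 each, and those of CLV2, TMM and RLP29 held none. RLP39, RLP40 and RLP41 were passed over because their windows touch another gene. Their lower interval bounds of 40.6, 20.2 and 19.9 lie above the 18.4 of RLP20, and their windows held no W box. The windows shown therefore do not stand for the higher members in general. In RLP24, RLP23 and RLP20 the same letters, the reverse complement of TTGACT, lay 109, 100 and 103 bases before the gene start. In pairwise alignment the windows of RLP20 and RLP23 were 65.2% identical, those of RLP20 and RLP24 62.1% and those of RLP23 and RLP24 62.0%, while the other pairs of windows shown were between 47.9% and 55.8% identical. Across the family, with windows that touch another gene kept, 30 of 57 members (52.6%) held a W box in the window. They included 14 of 24 higher members (58.3%) and 11 of 26 members that were neither (42.3%). RLP1, which was neither, held 2, and the unmeasured RLP3, RLP5, RLP8, RLP15 and RLP50 also held W boxes. Among all 27443 protein-coding genes the share was 28.4%. A match of letters is a description of the sequence and not a bound site.

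Many RLP genes lie side by side, and neighbours were not always called alike. With at most 10000 bases between members, 30 of the 57 fall into 11 tandem groups. Of the 26 measured there, 14 were higher and 0 lower, with a median log2 ratio of 1.66. Outside such groups 25 were measured, of which 10 were higher and 1 was lower, and their median was 0.41. Over all measured genes, 5.38% were higher and 4.64% lower. Of the 26 members in groups 13 overlap another gene or have a similar copy, and of the 25 outside 8 do. The part of such overlaps and copies in the contrast was not tested. In 3 groups every measured member was higher, namely RLP22 with RLP23, RLP37 with RLP38, and RLP39 to RLP42 on chromosome 3. In 5 groups higher members stood beside members that were neither. RLP24 and RLP28 were higher, while RLP26 and RLP27 between them had log2 ratios of 0.18 and -0.40. RLP20 was at a log2 ratio of 5.43 and its neighbour RLP21 at 0.69, RLP11 at 4.0 and RLP12 at -0.37, RLP30 at 1.33 and RLP31 at -0.61, and RLP49 at 2.13 and RLP48 at 0.19. The group of RLP13 to RLP16 had no called gene, with RLP13, RLP14 and RLP16 at 0.46, 0.03 and 0.83, and neither had RLP32 with RLP33 or RLP2 with RLP3.

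**Figure D3:**
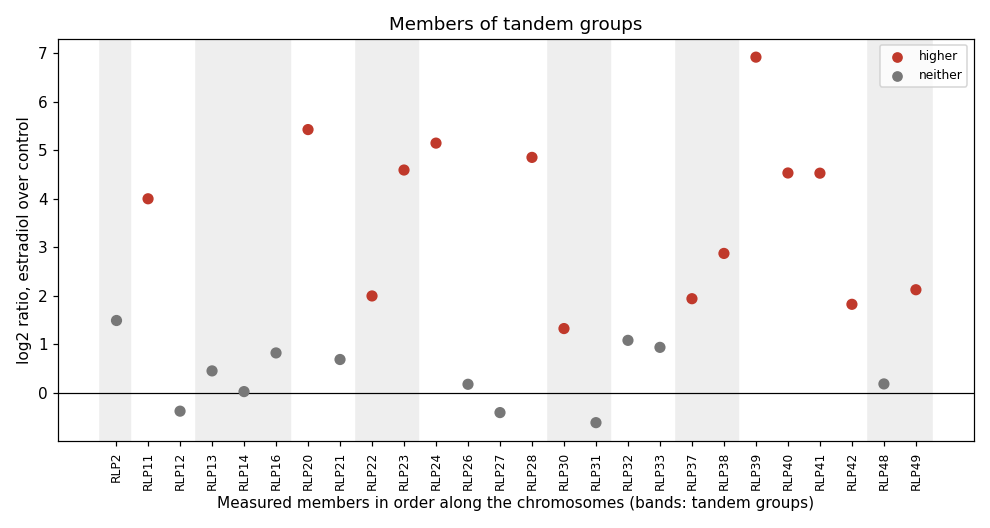
Log2 ratio of estradiol over control for the 26 measured members of the 11 tandem groups, in chromosome order, with alternating bands for the groups. The 4 points of RLP39 to RLP42 lie between 1.83 and 6.92, while in the group of RLP24 to RLP28 the points of RLP26 and RLP27 lie near 0 between 2 high ones.

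Counts of 21 of the 51 measured members are less certain, because 18 overlap another annotated gene and 10 have a similar copy, defined as at least 90% identity over 100 bases of transcript. Of these 21 members 13 were higher, and of the 30 without either 11 were higher (36.7%) and 1 lower, with a median log2 ratio of 0.57. The uncertain members include RLP18, which shares stretches with many other loci, such as 449 bases at 97.8% identity with AT2G21460. RLP40 and RLP42 are 94.1% identical over 2918 aligned bases, yet their ratios were 23.2 and 3.55, and RLP39 and RLP41 are 91.1% identical over 2809. RLP43 is 91.2% identical to RLP34 over 1330 bases and 90.8% identical to RLP53 over 879. RLP47 and RLP49 are 91.2% identical over 1896 bases, with ratios of 1.33 and 4.37. The deposited summary line for reads mapped to several places holds 0, and the handling of such reads is otherwise not given in the sources used here, so counts within these pairs are uncertain. The strand setting is not given either. For 7 of the 18, the overlapping gene is absent from the count tables, so its counts could not be set beside those of the member. These are RLP14, RLP18, RLP22, RLP32, RLP41, RLP53 and RLP56. Among overlapping loci in the count tables AT3G11000, on the opposite strand to RLP34, had 46 counts with estradiol and 5 in the control. VAMP725, opposite RLP23, had 42 and 11 counts, and VAMP728, opposite RLP39, had 175 and 193. RLP23 had far more counts than its overlapping gene in both libraries, while RLP39 had fewer than VAMP728 in the control. XRCC4, opposite RLP37, had 753 counts with estradiol and 517 in the control, more in the control than RLP37 with 490. AT3G05350, on the same strand as RLP30, had 4632 and 4378 counts, far above RLP30 in both libraries, and was itself not called.

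Genes listed for the pathways in which RLPs work held calls in both directions. Of 52 such genes in 5 lists 45 were measured, 4 (8.89%) were higher and 4 (8.89%) lower, against 5.38% and 4.64% of all measured genes, with a median log2 ratio of -0.13 and a range from -1.85 to 1.34. Among 9 receptor partners SERK4, a co-receptor kinase also called BKK1, was the one higher, with 6605 counts with estradiol and 2505 in the control, a ratio of 2.14 (2.04 to 2.24). SERK4 is 90.8% identical to SERK5 over 1737 bases. SOBIR1, the kinase partner of immune RLPs, had 18108 and 10455 counts, a ratio of 1.41 (1.37 to 1.44). BAK1 had 4453 and 2734 counts and BIR1, a kinase that holds immune signalling in check, had 12540 and 8571, with ratios of 1.32 and 1.19. SOBIR1 and BAK1 each overlap another annotated gene, as do ADR1-L1, BAM2, BIN2 and BES1 of the other lists. In level SOBIR1 stood far above the receptors, since the list's highest values were 178 RPKM with estradiol and 127 RPKM in the control, both from SOBIR1.

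In the cytoplasmic and immune hub list 2 of 12 measured genes were higher and 1 lower. EDS1 and PAD4, lipase-like proteins that act together in immunity, had 4786 and 4039 counts with estradiol and 1535 and 1372 in the control, with ratios of 2.53 (2.39 to 2.68) and 2.39 (2.25 to 2.54). NDR1, a membrane protein of immune signalling, was lower with 715 and 1401 counts, 2.41-fold lower with estradiol (2.21 to 2.65). The oxidase gene RBOHD had 15573 and 16923 counts, a ratio of 0.747, and the helper receptor genes ADR1-L1 and ADR1-L2 had ratios of 1.95 and 1.15. Thus the immune hub held calls in both directions. The 4 higher pathway genes, SERK4, EDS1, PAD4 and PGIP2, were no longer called with the assumed variation, and STOMAGEN alone among the 4 lower ones still was.

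In the lists around CLV2 and TMM all 8 and all 9 measured genes had log2 ratios below 0, most of them within the limit. Over all 20274 measured genes, 10000 had a log2 ratio below 0 and 4.64% were called lower. Of 8 measured CLV2 pathway genes BAM2, a receptor kinase related to CLV1, was lower with 465 counts with estradiol and 899 in the control, 2.38-fold lower (2.13 to 2.67), and the median log2 ratio was -0.44. CLV1, the receptor kinase of the CLV3 peptide, had 1745 and 2768 counts, a ratio of 0.512 whose interval of 0.482 to 0.543 includes 0.5. BAM1 had 3133 and 3532 counts and BAM3 had 2195 and 2245, with ratios of 0.720 and 0.793. None of these 3 was called. Among the TMM pathway genes 2 were lower and 0 higher, and the median was -0.57. STOMAGEN, a mesophyll peptide that promotes stomata, had 258 and 756 counts, 3.61-fold lower (3.13 to 4.18), and ERECTA (ER), a partner kinase of TMM, had 1585 and 2809, 2.18-fold lower (2.05 to 2.32). The kinase gene YDA and the transcription factor genes ICE1 and SCRM2 had log2 ratios of -0.27, -0.13 and -0.57. Of 7 measured genes in the list around RLP44, PGIP2, an inhibitor of polygalacturonases, was higher with 2985 and 1059 counts, a ratio of 2.29 (2.13 to 2.46). Whether PGIP2 has a part in RLP44 signalling was not tested. BES1, a brassinosteroid transcription factor, had a ratio of 0.497 with an interval of 0.481 to 0.513 that includes 0.5, and the receptor gene BRI1 and the kinase gene BIN2 had ratios of 1.23 and 1.03.

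**Figure D4:**
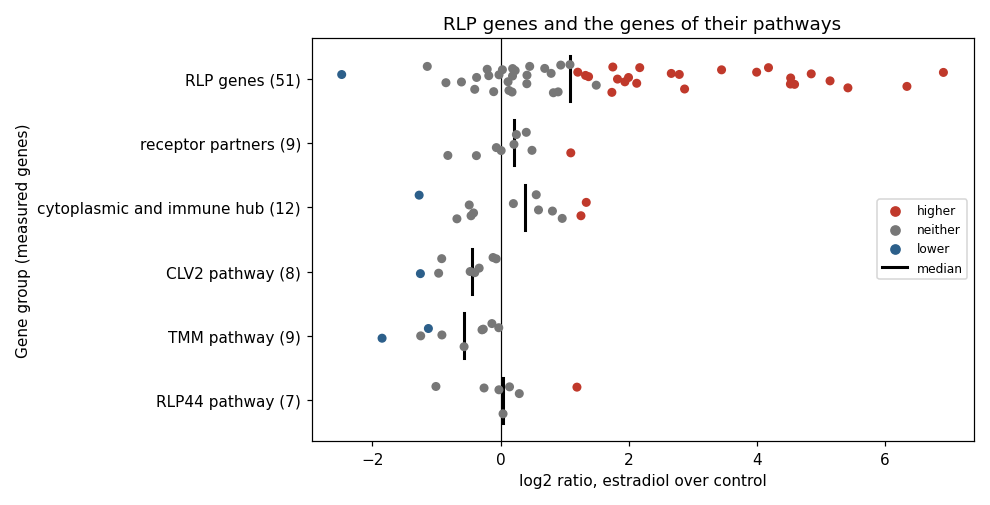
Log2 ratio of estradiol over control for the measured RLP genes and for the measured genes of 5 pathway lists, 1 point per gene with its call as colour and the group median as a bar. The RLP points spread from -2.48 to 6.92, and the points of the pathway lists lie between -1.85 and 1.34.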

How the data were processed

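Total RNA of 2 libraries was analysed, 1 per group, grouped by the treatment label. The authors deposited raw gene counts, 1 whole number per locus for 33602 loci, followed by summary lines. TAIR10 was the build and FastQC, HTSeq and DESeq were the tools listed, per the submitters' processing notes. Strand setting, aligner and gene models are details not given in the sources used here. Reads counted as ambiguous were 1.91% of the estradiol and 2.05% of the control library, and reads in no feature 0.693% and 0.742%. Summary lines were left out of library sizes.

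Library sizes were scaled with TMM factors (edgeR 4.0.16, R 4.3.3), 1.007 with estradiol and 0.993 in the control. Ratios are estradiol over control with an exact 95% Clopper-Pearson interval, conditional on a gene's total. Between equal counts of 10, 100 and 1000 that interval runs from 0.374 to 2.68, from 0.750 to 1.33 and from 0.915 to 1.09. Intervals rest on the 2 counts of a gene and cover counting error only. Reads counted without molecular identifiers are not independent, so the intervals may be too narrow even for that error. Log2 ratios use a prior count of 0.5. With 1 library a group no p-value is given. The size rule was tested on simulated data that held counting error only. That test cannot show how the rule behaves under variation between libraries. The alternatives were total-count scaling, DESeq2 1.42.0 size factors, no count minimum or one of 50, a limit of 4, a coefficient of variation of 0.2 between libraries, a prior count of 2, and leaving out uncertain members.

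Members and lists were chosen with earlier results of these data known. Every member is accounted for. Full values are given for members that were called, have a known role or lie nearest to a limit, and for called pathway genes with up to 3 others of the highest counts. RLP12, RLP26, RLP27, RLP47, RLP54 and the tandem neighbours were named after their values were seen. Names, exon lengths, overlaps (either strand), similar copies (BLAST 2.17.0) and upstream windows come from RefSeq's TAIR10.1 annotation, whose nuclear chromosomes are those of TAIR10, matched by locus identifier. Lengths may differ from the models used for counting. BIR3, PBL31 and GC1 have no symbol there and are named from general knowledge of their loci.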

Additional observations from a re-analysis of the deposited data

How the results depend on the processing

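With total-count or DESeq2 scaling, no count minimum or one of 50, the counts of RLP, pathway and all genes called stayed within 1.5 times those reported, and the family median log2 ratio lay between 0.94 and 1.15. With a limit of 4, 14 RLP genes were higher and 0 lower, 0 and 0 pathway genes, and 468 and 161 of all genes. Assuming a coefficient of variation of 0.2, 0 pathway genes were higher and 1 lower, and 641 and 367 of all genes, while 19 RLP genes stayed higher. Leaving out members with an overlap or a similar copy left 11 RLP genes higher and a median of 0.57. No result changed direction under these alternatives. The variation between libraries of a group cannot be estimated from these data, and how many calls it alone would give is unknown. Depth limits the members with few counts, as in RLP11, RLP28, RLP39, RLP44 and RLP55. No paired analysis was possible because each group has 1 library.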

Other observations

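Gene structure gave little contrast within the family. Of 21 measured members with 2 or more exons 11 were higher, and of 30 with 1 exon 13 were higher and 1 lower, with median log2 ratios of 1.21 and 0.99. Higher members had a median exon length of 2863 bases and those that were neither 2679. In control level the higher members had a median of 1.10 RPKM and the members that were neither 2.24. With estradiol the medians were 5.81 and 2.67 RPKM.

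Other letter motifs were rarer in the 250 bases before the gene start. The motif TGACG, which TGA-type bZIP factors recognise, was found on either strand in 7 of 24 higher members (29.2%), 3 of 26 that were neither (11.5%) and 18.6% of protein-coding genes. CATGTG, a motif described for NAC factors, was found in 3 of 24 (12.5%), 1 of 26 (3.85%) and 11.1%. No W box overlapped either motif in the windows of the members.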
